A study of Homo sapiens with 84 samples.

Results

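A module of 38 interferon-stimulated genes was measured in Kyse30, an esophageal squamous cell carcinoma line, and FaDu, a hypopharyngeal squamous cell carcinoma line, under treatment with ligands of the epidermal growth factor receptor (EGFR). The 38 genes were the rows of the count files whose Ensembl identifiers map to the symbols of a fixed list, out of 58395 gene rows in all. All 38 were found. The rule that names them uses no measured value, but the list was chosen with earlier results of these data known. Cells were plated in serum, deprived of serum and then left untreated or given EGF at 1.8 nM (EGFlow) or 9 nM (EGFhigh), the extracellular domain of EpCAM fused to an immunoglobulin Fc part (EpEX), EGFhigh together with EpEX (EGFhigh_EpEX), or the Fc part alone (Fc) as the control of EpEX. RNA was taken at 0 h, 6 h and 72 h, and all groups, controls included, stayed without serum throughout. The 43 Kyse30 libraries held 3 or 4 per group. Of the FaDu libraries, the 20 numbered 3 and 4 entered the main fits, with 1 or 2 per group, and the 21 numbered 1 and 2 entered as an alternative only. Each line is a single tumour cell line, so the results describe these lines. The labels do not say whether libraries of a group came from separate cultures, so the p-values measure the spread between these libraries, which may be technical.

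Interferons are secreted proteins that warn cells of a viral infection. Type I and type III interferons bind different receptors on the surface, and both activate the kinases JAK1 and TYK2, which phosphorylate transcription factors of the STAT family, STAT2 among them. With IRF9 these form ISGF3, a transcription factor complex that binds the interferon-stimulated response element (ISRE) in front of many genes. Their products block viral entry, sense or degrade viral RNA, stop its translation, or attach the ubiquitin-like protein ISG15 to other proteins. Interferon gamma acts through another sequence, the gamma-activated site (GAS). In tumour cells many of these genes keep a basal level without infection.

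The sequences upstream of 8 members are shown because the results turn on these genes and because the ISRE recurs in 7 of them. RefSeq promoter windows on GRCh38.p14, from 250 bases before to 50 bases after an annotated start, were matched by symbol for 30 of the 38 members. An ISRE core was searched as TTTCNNTTTC, which reads GAAANNGAAA on the other strand, and a GAS as TTCNNNGAA, which is the same on both strands. The 2 motifs were counted separately, whether or not they overlapped. At least 1 window held the ISRE letters in 20 of the 30 members (66.7%), against 4.38% of the 27305 genes of the table. Counted by window, the motif stood in 58.5% of the 41 windows of members and in 3.57% of all 35116 windows. The GAS letters stood in 9 of the 30 members (30%) and in 9.38% of all genes. In the following sequences, 200 bases long and written 5′ to 3′ on the strand of the gene up to its start, capitals mark ISRE matches on either strand. The first 6 belong to members that rose with time in culture in Kyse30, and IFIT1 and ISG20 belong to members called in comparisons with EGF. OAS3 and DTX3L rose with time as well and are not shown. Their 200 bases held 2 and 0 ISRE matches. A match is a run of letters and not a measured binding site.
IFI6, chr1:27672193-27672392, minus strand: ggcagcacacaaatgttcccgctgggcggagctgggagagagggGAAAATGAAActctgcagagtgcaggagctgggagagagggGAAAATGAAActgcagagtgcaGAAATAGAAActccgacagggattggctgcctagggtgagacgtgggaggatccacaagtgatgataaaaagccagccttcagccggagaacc
IFI27, chr14:94110536-94110735, plus strand: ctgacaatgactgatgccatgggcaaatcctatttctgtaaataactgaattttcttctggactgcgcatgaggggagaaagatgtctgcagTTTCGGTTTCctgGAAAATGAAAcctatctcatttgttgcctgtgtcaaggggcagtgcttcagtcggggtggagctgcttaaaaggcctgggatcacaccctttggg
IFI44L, chr1:78620248-78620447, plus strand: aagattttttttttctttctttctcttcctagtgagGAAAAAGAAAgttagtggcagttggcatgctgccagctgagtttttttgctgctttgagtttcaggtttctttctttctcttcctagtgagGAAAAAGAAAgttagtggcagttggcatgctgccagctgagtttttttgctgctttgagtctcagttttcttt
BST2, chr19:17405631-17405830, minus strand: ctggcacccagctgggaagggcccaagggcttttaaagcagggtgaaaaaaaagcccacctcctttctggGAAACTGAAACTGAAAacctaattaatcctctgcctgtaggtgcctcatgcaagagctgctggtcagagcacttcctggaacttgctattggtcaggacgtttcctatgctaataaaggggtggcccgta
ISG15, chr1:1013297-1013496, plus strand: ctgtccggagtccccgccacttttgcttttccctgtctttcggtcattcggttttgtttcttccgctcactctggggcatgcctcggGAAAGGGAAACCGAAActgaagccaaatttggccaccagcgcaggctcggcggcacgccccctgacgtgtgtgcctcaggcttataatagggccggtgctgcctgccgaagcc
OAS1, chr12:112906762-112906961, plus strand: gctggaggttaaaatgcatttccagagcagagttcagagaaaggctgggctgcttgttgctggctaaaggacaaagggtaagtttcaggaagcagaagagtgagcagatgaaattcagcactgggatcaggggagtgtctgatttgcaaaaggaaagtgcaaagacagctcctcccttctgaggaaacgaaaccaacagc
IFIT1, chr10:89392423-89392622, plus strand: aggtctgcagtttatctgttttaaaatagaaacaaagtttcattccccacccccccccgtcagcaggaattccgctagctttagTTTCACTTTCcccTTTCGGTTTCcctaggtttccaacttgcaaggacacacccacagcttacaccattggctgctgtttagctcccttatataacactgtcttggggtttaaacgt
ISG20, chr15:88638816-88639015, plus strand: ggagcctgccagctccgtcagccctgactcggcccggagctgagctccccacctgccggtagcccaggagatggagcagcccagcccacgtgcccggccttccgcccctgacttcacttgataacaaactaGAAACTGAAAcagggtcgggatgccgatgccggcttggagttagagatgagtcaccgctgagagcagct

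In front of IFI6 the motif occurred 3 times, starting 156, 115 and 93 bases upstream of the annotated start. IFI44L carried it 164 and 73 bases upstream, and in BST2 and ISG15 the 2 matches overlapped each other. IFIT1 held 2 matches 116 and 103 bases upstream and ISG20 held 1 match 69 bases upstream. The window of OAS1 held no match with these letters, which says nothing of the factors that bind there. Members also lie side by side in the genome. On chromosome 12 of the GENCODE annotation, OAS1 (chr12:112906777-112933222), OAS3 (chr12:112938352-112973249) and OAS2 (chr12:112978395-113011723) follow each other on the plus strand. IFIT2 (chr10:89283694-89309276), IFIT3 (chr10:89327894-89340971) and IFIT1 (chr10:89392546-89406486) do so on chromosome 10.

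The depth of the Kyse30 libraries lay between 1944948 and 11759799 counts on genes, and that of the FaDu libraries numbered 3 and 4 between 6217938 and 12442349. Levels are given as CPM, the counts of a gene scaled to a common library size, after trimmed mean of M-values (TMM) scaling over all libraries. The reads come from the 3′ ends of transcripts, so a CPM compares genes without a correction for length. A group total of 3 counts was taken as the floor. All 7 markers of squamous epithelium had a mean of at least 1 CPM in both lines. Of the 5 immune cell markers only CD68 reached it, at 1.19 and 1.09 CPM, and PTPRC, CD3E and CD14 lay between 0 and 0.139 CPM. Of the 5 markers of fibroblasts and endothelium, COL1A1 was measured at 15.3 CPM in Kyse30 and 9.35 CPM in FaDu and PECAM1 at 0 and 0.0389 CPM. The summed immune markers reached 11.7 CPM at most in Kyse30 and 5.25 CPM in FaDu. No 2 libraries were identical among the 97 pairs of 1 group compared.

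The members were present at very different levels. In Kyse30, 33 of the 38 passed the filter on low counts, 16 had a mean above 10 CPM and 7 a mean below 1 CPM. In FaDu, 35 passed, 9 had a mean above 10 CPM and 8 a mean below 1 CPM. The median of the 38 means was 8.66 CPM in Kyse30 and 4.33 CPM in FaDu. IRF7, DHX58, HERC5, CMPK2 and EPSTI1 did not pass in Kyse30, and OAS2, CMPK2 and EPSTI1 did not pass in FaDu.

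Among the transcription factors, IRF1 was the highest in both lines, with a mean of 57.9 CPM ± 33.4 (SD over 43 libraries) in Kyse30 and 22.8 CPM ± 9.12 (SD over 20 libraries) in FaDu. IRF7, which amplifies the interferon response, gave 6 counts in all 43 Kyse30 libraries together and a mean of 7.35 CPM ± 3.89 in FaDu. IRF9, the DNA-binding part of ISGF3, was the lowest factor in FaDu, with a mean of 1.36 CPM. The oligoadenylate synthetases make the messenger that activates RNase L. OAS1 led the RNA sensors and synthetases in Kyse30, with a mean of 26.4 CPM, and the sensor DHX58 was lowest at 0.405 CPM. OAS3 led them in FaDu, with a mean of 28.2 CPM, and OAS2 was lowest at 0.388 CPM. The IFIT proteins, which bind foreign RNA ends, ran from IFIT3 (41.8 CPM) to IFIT1 (9.75 CPM) in Kyse30 and from IFIT3 (8.10 CPM) to IFIT1 (3.74 CPM) in FaDu.

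The MX GTPases, which trap viral nucleocapsids, were low in both lines. MX1 had a mean of 0.499 CPM in Kyse30 and 2.45 CPM in FaDu, and MX2 had 1.62 and 0.201 CPM. ISG15 was the highest gene of the ISG15 conjugation system, with means of 82.6 and 38.6 CPM, and HERC5, its ligase, was the lowest, with 0.292 and 1.999 CPM. Reads of USP18, the enzyme that removes ISG15, cannot be told apart with certainty from those of its close copy USP41, so its values are uncertain. Among the ADP-ribosylation genes, DTX3L led in Kyse30 (114 CPM) and PARP14 in FaDu (74.2 CPM), and PARP12 was lowest in both (6.06 and 5.35 CPM). PARP9 and DTX3L lie on opposite strands and their annotated starts overlap, while the reads come from 3′ ends. The strand setting of the counting is not given in the sources used here. SAMD9, an antiviral factor that acts on translation, was the highest member of all in Kyse30, with a mean of 189 CPM ± 68.9, and reached 39.1 CPM ± 8.91 in FaDu. Its paralog SAMD9L lay at 16.8 and 0.581 CPM. Among other antiviral effectors, BST2, the tether that holds virions at the cell surface, had the highest mean in Kyse30 (14.4 CPM) and the exonuclease ISG20 in FaDu (9.50 CPM). CMPK2 (0.00348 CPM) in Kyse30 and TRIM22 (0.122 CPM) in FaDu were the lowest. IFI6, a small mitochondrial and endoplasmic reticulum protein, led the remaining induced genes in both lines (77.8 and 15.02 CPM) and EPSTI1 was lowest (0.190 and 0.226 CPM).

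**Figure D1:**
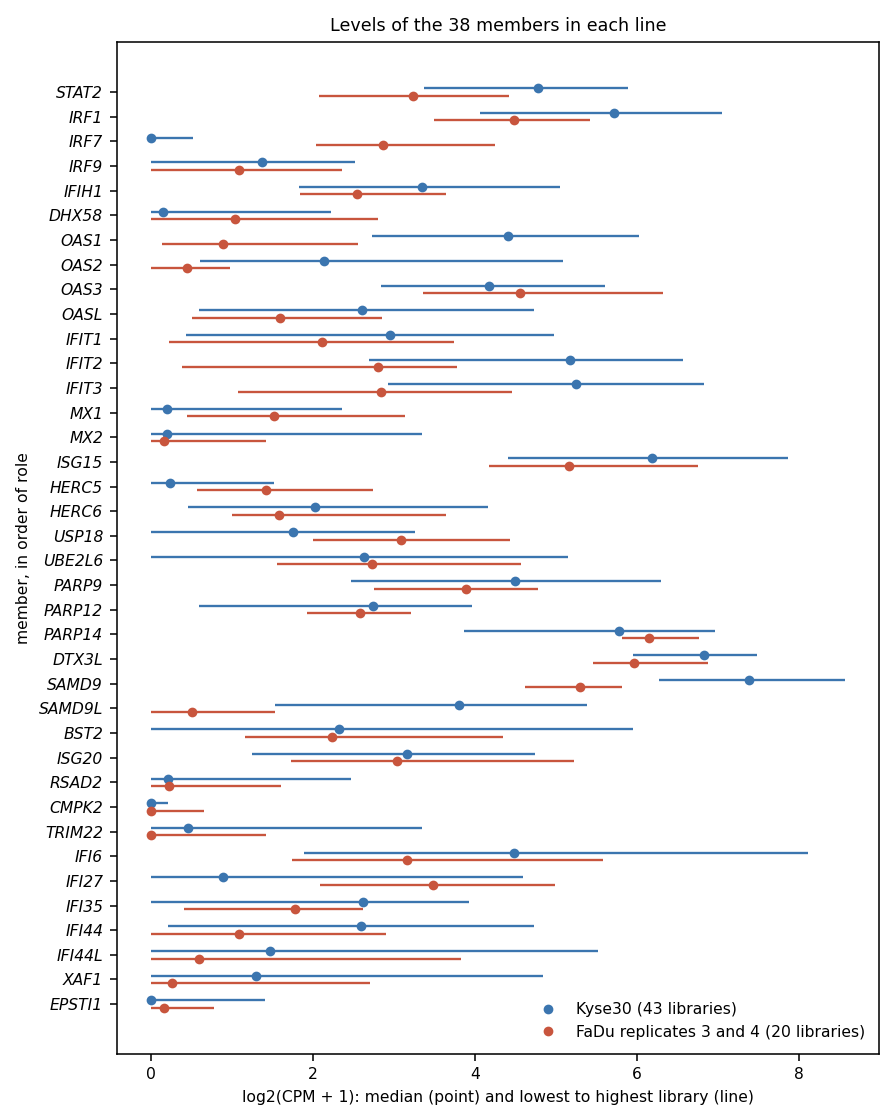
Levels of the 38 members on a log2(CPM + 1) axis, with a point for the median and a line from the lowest to the highest library (Kyse30, 43 libraries, blue; FaDu numbered 3 and 4, 20 libraries, red). SAMD9 and DTX3L lie furthest right in Kyse30, IRF7 lies at 0 in Kyse30 and above it in FaDu, and IFI6 and BST2 have among the widest lines.

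Untreated cells of both lines were compared at 6 h, where neither ligand had been added. Of the 37 members tested in the fit of both lines, 8 were called. A gene was called when its log2 fold change exceeded 0.5 in either direction and its p, adjusted by Benjamini-Hochberg over all genes in edgeR's quasi-likelihood test, did not exceed 0.05. The share called among all 19634 genes was 22.4%, so the 8 members stood near that background. Kyse30 had 3 libraries in this comparison and FaDu 2.

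SAMD9L was higher in Kyse30, with 22.5, 8.24 and 6.37 CPM against 0.350 and 0.485 CPM in FaDu (log2 fold change 4.80 ± 1.1 SE, adjusted p = 0.00105). OAS1 gave 8.90, 10.2 and 8.92 CPM against 0.350 and 1.94 CPM (log2 fold change 2.998 ± 0.74, adjusted p = 0.00173). SAMD9 gave 219, 149 and 162 CPM against 29.1 and 33.9 CPM (log2 fold change 2.46 ± 0.50, adjusted p = 0.000136). All 3 genes were higher in every Kyse30 library than in either FaDu library. The groups did not overlap for 18 of 37 members, beside 46.9% of all genes. IFIT2 (2.20), IFIT3 (1.81) and STAT2 (1.66) were higher in Kyse30 by these log2 fold changes. IRF7 had no count in the 3 Kyse30 libraries and 6.07 and 7.63 CPM in FaDu, which makes it at least 47.7-fold lower in Kyse30 against a floor of 3 counts over the group. IFI27, a mitochondrial protein induced by interferon alpha, had 2 counts in the Kyse30 group and 5.02 and 30.7 CPM in FaDu, a ratio of 184 with a 95% exact counting interval from 50.5 to 1528. Without FaDu replicate 3 the count of called members was 5. ISG15 (44.8 against 28.2 CPM, log2 fold change 0.64, adjusted p = 0.344), IFIT1 (1.67, adjusted p = 0.167) and MX1 (-2.78, adjusted p = 0.203) were not called.

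In untreated Kyse30 cells, 9 of the 33 members tested were higher at 72 h than at 6 h and none was lower. Among all 15350 genes the share called was 1.55%, and the share called higher was 0.775%. The called members were IFI27, IFI44L, IFI6, BST2, OAS2, OAS1, OAS3, ISG15 and DTX3L. The 3 libraries at 72 h lay wholly above the 3 at 6 h for each of them, and over all tested members the groups did not overlap for 20 of 33, against 20.5% of all genes. An unadjusted p under 0.05 was reached by 19 of 33 members, against 13.2% of all genes. The median log2 fold change of the 33 was 1.40, beside 0.02 over all genes. In these bulk samples, fewer cells of a type and less RNA per cell cannot be told apart.

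IFI6 gave 11.2, 11.9 and 2.69 CPM at 6 h and 231, 221 and 187 CPM at 72 h (log2 fold change 4.65 ± 0.79, adjusted p = 0.000705). The lowest library at 72 h stood far above the highest at 6 h. IFI27 had 2 counts in the 3 libraries at 6 h and gave 18.6, 11.95 and 5.33 CPM at 72 h, a ratio of 145 with a 95% exact counting interval from 39.7 to 1200. IFI44L, of unsettled function, gave 1.05, 0 and 0.283 CPM at 6 h and 22.3, 22.2 and 12.7 CPM at 72 h (log2 fold change 5.52 ± 1.4, adjusted p = 0.0287). BST2 gave 4.71, 0.984 and 0.425 CPM at 6 h and 47.6, 46.6 and 19.3 CPM at 72 h (log2 fold change 4.28 ± 1.1, adjusted p = 0.0356). These 4 genes did not overlap between the times, and replicate 3 was the lowest at 72 h in each of them.

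All 3 synthetases rose. OAS2 gave 2.79, 1.599 and 0.566 CPM at 6 h and 28.5, 32.6 and 10.2 CPM at 72 h (log2 fold change 3.88 ± 1.0, adjusted p = 0.0309). OAS1 gave 8.90, 10.2 and 8.92 CPM at 6 h and 59.9, 36.8 and 32.2 CPM at 72 h (log2 fold change 2.22 ± 0.51, adjusted p = 0.0137). OAS3 was called at 1.87 ± 0.50 on the log2 scale. ISG15 gave 58.8, 48.7 and 26.8 CPM at 6 h and 192, 122 and 113 CPM at 72 h (log2 fold change 1.69 ± 0.41, adjusted p = 0.0207). The smallest called change was that of DTX3L, the ubiquitin ligase that partners PARP9, with means of 79.5 and 142 CPM (0.85 ± 0.23, adjusted p = 0.0399). IFIT1 (11.4, 4.67 and 5.10 CPM against 30.3, 4.55 and 19.9 CPM) overlapped between the times and was not called (adjusted p = 0.348). MX1 lay at or below 2.34 CPM in all 6 libraries and was not called either (adjusted p = 0.603).

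The count of 9 depended on single libraries. It was 3 without replicate 1 of the 6 h group, 1 without replicate 3 and 1 without replicate 4. Without replicate 1 or 2 of the 72 h group it was 2 and 4. DESeq2 called 11 members. The fit of the 2 groups alone and the fit without the count filter each called 15. Between 0 h and 6 h no member was called by edgeR (0% of all genes), 2 reached an unadjusted p under 0.05 and DESeq2 called 0.

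**Figure D2:**
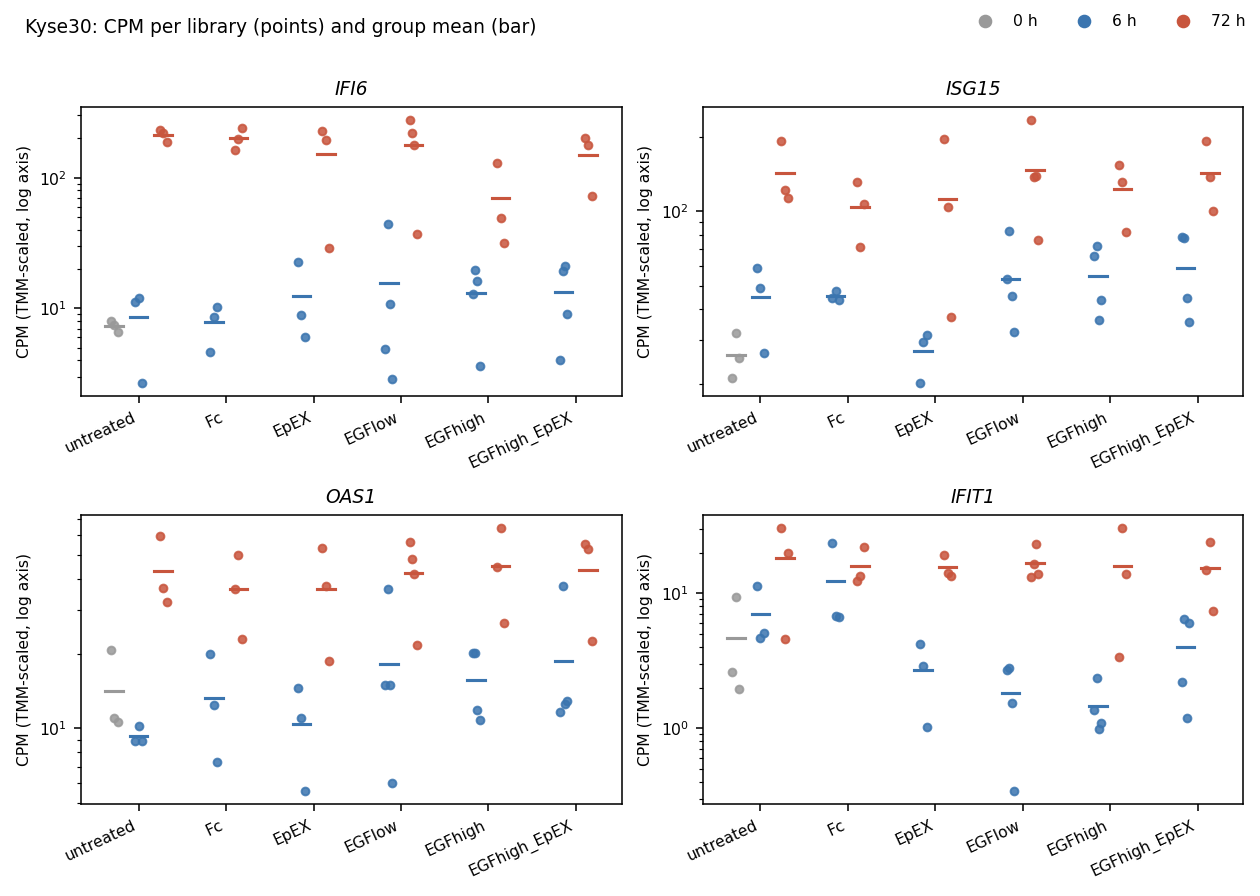
CPM of IFI6, ISG15, OAS1 and IFIT1 in each Kyse30 library on log axes, by arm, with 0 h in grey, 6 h in blue and 72 h in red and a bar for the group mean. IFI6 lies at 162 CPM or higher in all untreated and Fc libraries at 72 h. At 6 h it lies at 11.9 CPM or lower in all of them. IFIT1 at 6 h has a median of 1.87 CPM in the 3 arms with EGF and 2.89 CPM with EpEX alone. In untreated and Fc its median is 6.74 CPM, with a range that overlaps that of the arms with EGF.

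The same contrast was made in the 5 other arms, after the data had been seen. No arm shares a library with another. With Fc 6 of 33 members were called (2.25% of all genes), with EpEX 15 (5.65%), with EGFlow 18 (14.8%), with EGFhigh 9 (12.3%) and with EGFhigh_EpEX 14 (13.4%), and every called member was higher at 72 h. DESeq2 called 10 with Fc, and edgeR with the replicate block called 15 with EGFhigh. Leaving out single libraries moved these counts to between 1 and 4 with Fc, 5 and 15 with EpEX, 7 and 21 with EGFlow, 3 and 9 with EGFhigh, and 6 and 17 with EGFhigh_EpEX. With Fc the count was 1 without replicate 1 or 3 at 6 h, 2 without replicate 4 at 6 h and 3 without replicate 2 at 72 h. With EpEX it was 5, 7 and 9 without replicate 1, 3 or 4 at 6 h, and 6 without replicate 1 or 2 at 72 h. With EGFlow it was 7 and 9 without replicate 3 or 4 at 6 h, and 10 and 11 without replicate 1 or 2 at 72 h. With EGFhigh it was 4 and 3 without replicate 3 or 4 at 6 h, and 3 without replicate 3 at 72 h. With EGFhigh_EpEX it was 6 and 7 without replicate 3 or 4 at 6 h, and 6 and 7 without replicate 1 or 2 at 72 h.

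By arm, the called members with the largest changes were the following, with the log2 fold change for those at a mean of at least 1 CPM at both times. With Fc, all 6 were IFI27, IFI44L, IFI6 (4.70), IFIH1 (1.87), STAT2 (1.15) and DTX3L (0.84). With EpEX, the first 10 were IFI44L, IFI27, BST2 (4.37), IFI6 (3.50), OAS2 (3.33), IFI35, IFIT1 (2.38), IRF1 (2.28), ISG15 (2.06) and IFIH1 (1.80003). With EGFlow, the first 10 were IFI27, IFI6 (3.51), IFIT1 (3.16), BST2 (3.09), IFI44L (2.77), UBE2L6 (2.72), OASL (2.07), HERC6 (1.94), IFIT2 (1.65) and IFIT3 (1.54). With EGFhigh, all 9 were IFIT1 (3.44), IFI6 (2.44), OASL (1.98), STAT2 (1.58), OAS1 (1.54), IFIT3 (1.52), IFIT2 (1.36), IFI35 (1.34) and ISG15 (1.18). With EGFhigh_EpEX, the first 10 were RSAD2, XAF1, IFI27, IFI6 (3.54), IFI44L (3.45), BST2 (3.06), IFI44 (3.01), OAS2 (2.61), IFIT1 (1.99) and PARP9 (1.71). IFI6 and STAT2 were called in all 5 of these arms, and IFIT1, the IFIT protein that binds foreign 5′ ends, in the 4 that had received EpEX or EGF.

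Over the 6 arms, untreated included, 24 members were called in at least 1 arm, 10 in at least 4 arms and 26 had a higher fitted level at 72 h in every arm. The same counts over arms were not made for all genes. In single arms, 1.55% to 14.8% of all genes were called. A higher fitted level at 72 h was found for 51.4% to 54.2% of all genes in single arms. IFI6 was called in all 6 arms, with log2 fold changes between 2.44 with EGFhigh and 4.70 with Fc. IFI27, IFI44L, ISG15 and STAT2 were called in 5 arms each. The log2 fold change of STAT2, a subunit of ISGF3, lay between 0.50 in untreated cells, where it was not called, and 1.58. That of ISG15 lay between 1.18 and 2.06. IRF9, ISG20, MX1, MX2, PARP12, SAMD9, SAMD9L, TRIM22 and USP18 were called in no arm. The log2 fold change of SAMD9, the most abundant member, lay between -0.35 and 0.42. Only EGFlow held the same replicate numbers at both times, so the sizes of change in the other arms were not balanced for number.

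Libraries of 1 replicate number differed in the overall level of the module. Summed over the 38 members, the median at 6 h was 711 CPM in libraries numbered 1, 800 in those numbered 2, 539 in those numbered 3 and 455 in those numbered 4. At 72 h the medians were 1625, 1323, 1033 and 795 CPM. Untreated and Fc held numbers 1, 3 and 4 at 6 h and 1, 2 and 3 at 72 h. EGFhigh held all 4 numbers at 6 h and lacked number 2 at 72 h. The rise stood within each number, and over the 16 pairs of 1 arm and 1 number measured at both times 11 members were higher at 72 h in every pair. These were IFI6, IFI27, ISG15, OAS1, BST2, IFI44L, IFI44, IFI35, IFIH1, IFIT3 and STAT2. OAS2 and IFIT1 were higher in 15 pairs, DTX3L in 14, ISG20 in 7 and SAMD9 in 6. The share of all genes higher in every pair was not counted. Over all arms the sum ran from 366 to 915 CPM at 6 h (median 625.3, 21 libraries) and from 554 to 1883 CPM at 72 h (median 1286, 19 libraries). The summed immune markers had medians of 0.788 CPM at 6 h and 1.03 CPM at 72 h, and their part in the result was not tested.

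**Figure D3:**
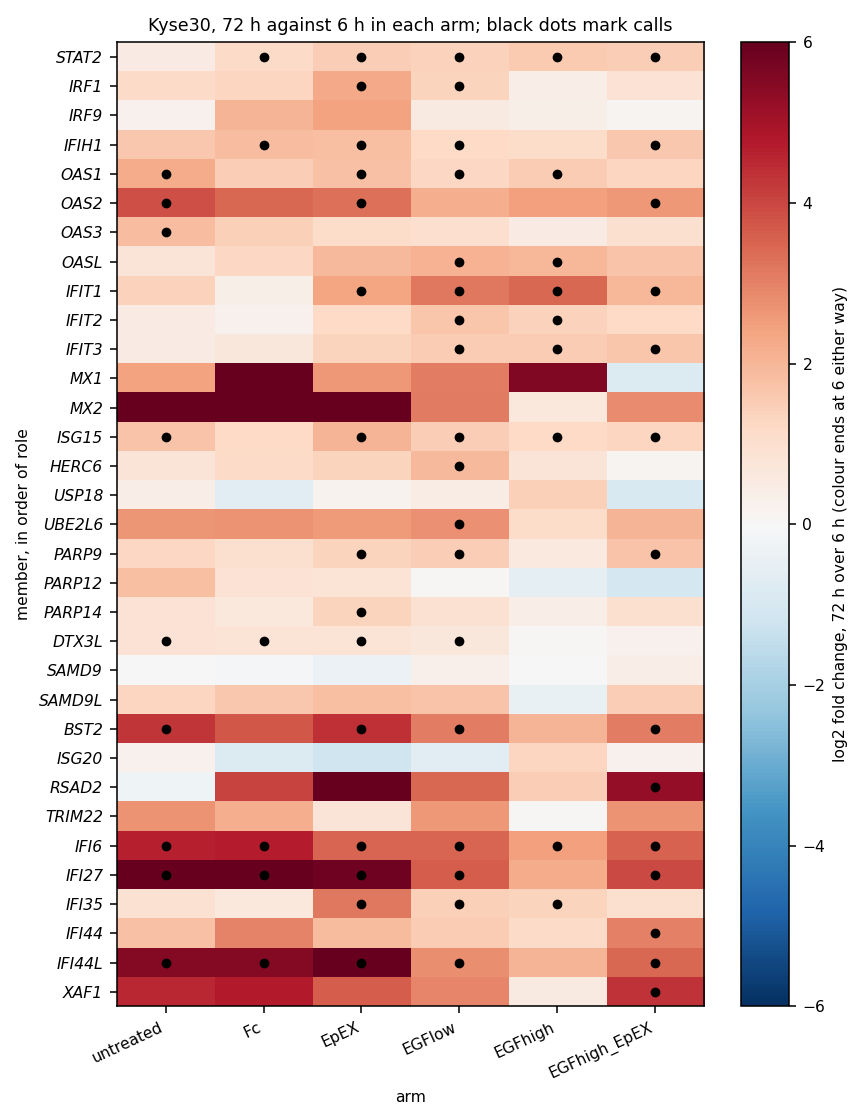
Log2 fold change from 6 h to 72 h of the 33 members tested in Kyse30, by arm (columns) and in order of role (rows), with red for higher at 72 h, blue for lower and black dots for called members. IFI6 carries a dot in all 6 columns, while MX1 and MX2, which hold few or no counts at 6 h, reach 6.86 and 7.39 without one.

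Other genes of the pathway, taken from lists set up beside the members, were read in the same comparison. Of 35 further interferon-induced genes, 33 were tested and 5 were called, all higher at 72 h in untreated Kyse30 cells. IFITM3, which blocks viral fusion, rose from 282 CPM ± 25.7 (SD, n = 3) to 1621 CPM ± 172 (log2 fold change 2.54, adjusted p = 2.48e-05). LGALS3BP rose by 2.12, HELZ2 by 1.87, RNF213 by 1.45 and the kinase EIF2AK2, which stops translation when it binds double-stranded RNA, by 1.05 on the log2 scale. Of 26 genes of ligands, receptors, kinases and sensors, 22 were tested and none was called by edgeR, while 3 reached an unadjusted p under 0.05.

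The ligands themselves were at the edge of detection. IFNB1 and IFNK had no count in any Kyse30 or FaDu library at 6 h or 72 h. IFNL1, a type III interferon, had a count in 6 of 21 Kyse30 libraries at 6 h and in 14 of 19 at 72 h, with a highest value of 1.48 and 5.85 CPM. For IFNL2 these were 9 of 21 and 13 of 19 libraries, and for IFNL3 2 of 21 and 9 of 19. The total counts behind these values were 27 and 201 for IFNL1, 20 and 87 for IFNL2 and 2 and 48 for IFNL3. In FaDu, IFNL1 had a count in 4 of 11 libraries at 6 h and 4 of 8 at 72 h, with total counts of 47 and 15. The FaDu totals were 10 and 0 for IFNL2 and 0 and 4 for IFNL3. IFNE had a count in 15 of 21 Kyse30 libraries at 6 h and in 12 of 19 at 72 h, with total counts of 80 and 82. For IFNE in FaDu these were 7 of 11 and 5 of 8 libraries, with total counts of 47 and 25. The type III genes resemble each other closely, so the split of reads between IFNL2 and IFNL3 is uncertain.

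Treatment with EGF was compared with untreated cells of the same time, and EpEX with Fc. The EGFlow, EGFhigh and Fc comparisons of 1 time share the untreated libraries, and the EpEX comparisons share the Fc libraries. In Kyse30 at 6 h, EGFlow gave no called member by edgeR (1.5% of all genes, DESeq2 0). At an unadjusted p under 0.05 there were 5 members, beside 13.7% of all genes, and without the filter on low counts 4 members were called. EGFhigh gave 1 of 33 (2.55% of all genes), which was DTX3L, with 112, 147, 124 and 168 CPM against 73.9, 80.1 and 84.6 CPM in untreated cells (log2 fold change 0.77 ± 0.22, adjusted p = 0.0418). All 4 treated libraries were higher, in a comparison where 9 of 33 members and 15.1% of all genes did not overlap. The call was lost without replicate 2, 3 or 4 of EGFhigh or without any of the 3 untreated libraries. There DESeq2 called 3 members, edgeR 5 without the filter, 4 with only the groups compared and 2 with the replicate number as a block. EpEX gave none by edgeR (0.0261% of all genes), with 4 members at an unadjusted p under 0.05 beside 9.45% of all genes. DESeq2 called 1, IFI35, the replicate block gave the same 1, and the fit without the filter called 1, IFIT1. EGFhigh_EpEX gave none (4.52%), with 5 members at an unadjusted p under 0.05 beside 19.2% of all genes. DESeq2 called 1, DTX3L, and edgeR without the filter called 3. Without replicate 3 or 4 of EGFhigh_EpEX, edgeR called 1.

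At 72 h edgeR with the filter on low counts called no member of Kyse30 with any ligand against its control. EGFlow gave 0 called of 33 by edgeR (0% of all genes, 0 members with an unadjusted p under 0.05, DESeq2 0). EGFhigh gave 0 (6.2%, 2 members, DESeq2 0), EpEX 0 (0%, 0 members, DESeq2 0) and EGFhigh_EpEX 0 (0%, 0 members, DESeq2 0). The 2 members with EGFhigh stood beside 19.4% of all genes at an unadjusted p under 0.05. For EGFhigh the count was 5 without the filter (BST2, IFI44L, IFI6, SAMD9L and XAF1) and 1 with only the groups compared (ISG20). ISG15 had means of 142 CPM ± 43.3 in untreated cells, 146 ± 64.6 with EGFlow and 122 ± 36.1 with EGFhigh (SD, n = 3, 4 and 3). OAS1 had 42.9 ± 14.9, 42.2 ± 14.8 and 45.1 ± 18.8 CPM in the same groups, and IFIT1 18.2 ± 13.0, 16.7 ± 4.62 and 15.8 ± 13.5 CPM. MX1 stayed at or below 4.09 CPM in all 19 libraries at 72 h. IFI6 had means of 213 CPM ± 23.0 untreated and 70.5 CPM ± 52.3 with EGFhigh, without overlap, and missed the threshold (log2 fold change -1.62 ± 0.68, adjusted p = 0.165). In that comparison 4 of 33 members and 23% of all genes did not overlap. The untreated libraries were numbered 1, 2 and 3 and the EGFhigh libraries 1, 3 and 4. Within number 1 IFI6 gave 231 CPM untreated and 130 CPM with EGFhigh, and within number 3 187 and 49.6 CPM. Number 4 had no untreated library at 72 h. It gave 31.9 CPM with EGFhigh, 37.0 CPM with EGFlow and 29.1 CPM with EpEX.

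ISG20, an exonuclease that degrades single-stranded RNA, differed between the EGF doses. With EGFhigh at 72 h it gave 22.7, 25.7 and 22.1 CPM, against 6.11, 3.57, 4.27 and 7.90 CPM with EGFlow (log2 fold change 2.07 ± 0.50, adjusted p = 0.0108). It was the 1 member called of 33 between the 2 doses (3.73% of all genes), and the call was lost without replicate 2 of EGFlow. All 3 EGFhigh libraries lay above all 4 EGFlow libraries. In either direction, 12.5% of all genes did not overlap between the doses. With EpEX added to EGFhigh it gave 8.82, 10.6 and 9.44 CPM, and no member was called by edgeR between EGFhigh_EpEX and EGFhigh (3.58% of all genes, 1 member with an unadjusted p under 0.05, DESeq2 0). That member was ISG20, with a log2 fold change of -1.27 ± 0.54 and an adjusted p of 0.211.

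Fc alone gave 0 called members against untreated cells at 6 h (0% of all genes, 1 member with an unadjusted p under 0.05, DESeq2 0). At 72 h it gave 0 (0%, 0 members, DESeq2 0). The response to time was compared between EGFhigh and untreated cells as an interaction, added after the data had been seen. No member was called by edgeR (1.01% of all genes) or DESeq2, and 9 reached an unadjusted p under 0.05, of which 7 had a smaller change with EGFhigh, beside 13.7% of all genes at that p. The replicate numbers were not balanced between these arms and times.

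The 3 arms with EGF were also pooled and set against untreated and Fc together, a comparison chosen after the data had been seen. Each arm counted equally within its side, whatever its number of libraries. At 6 h in Kyse30, 5 of 33 members were called, against 11.8% of all genes, so the members stood near that background. An unadjusted p under 0.05 was reached by 27.3% of the members tested and by 26.9% of all genes. IFIT1 was lower with EGF, with 0.343 to 6.41 CPM (median 1.87, 12 libraries) against 4.67 to 23.6 CPM (median 6.74, 6 libraries; log2 fold change -2.10 ± 0.41, adjusted p = 0.0004). IFIT2 ran from 5.43 to 41.6 CPM (median 18.2) with EGF and from 25.6 to 60.8 CPM (median 29.5) without, at -0.87 ± 0.29 (adjusted p = 0.0383). STAT2 ran from 9.35 to 21.7 CPM (median 17.9) with EGF and from 11.3 to 33.6 CPM (median 23.5) without, at -0.57 ± 0.19 (adjusted p = 0.0374). The ranges overlapped for each of these 3 genes. The 3 libraries with EpEX alone, which entered neither side, had low medians of these genes as well. There IFIT1 ran from 1.02 to 4.21 CPM (median 2.89), IFIT2 from 8.48 to 28.5 CPM (median 13.2) and STAT2 from 9.58 to 18.3 CPM (median 10.6). PARP12, a mono-ADP-ribosyltransferase, was higher with EGF at 5.00 to 12.2 CPM (median 5.93) against 1.57 to 5.89 CPM (median 3.47; 1.22 ± 0.38, adjusted p = 0.0246). DTX3L was higher at 78.8 to 178 CPM (median 108) against 72.2 to 84.6 CPM (median 77.1; 0.54 ± 0.14, adjusted p = 0.00734). With EpEX alone the medians were 4.51 CPM for PARP12 and 63.3 CPM for DTX3L. The count was 3 without replicate 4 of EGFlow, replicate 3 of Fc, or replicate 1 or 3 of untreated cells. In the list of further induced genes, 7 of 33 were called, 5 higher and 2 lower, and of the ligands, receptors, kinases and sensors IFNGR2 alone was called, higher with EGF.

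The lower IFIT1 at 6 h had no counterpart among the calls at 72 h, where IFIT1 ran from 3.37 to 30.2 CPM (median 14.4, 10 libraries) with EGF and from 4.55 to 30.3 CPM (median 16.7, 6 libraries) without. At 72 h the pooled comparison called no member by edgeR or DESeq2 (1.86% of all genes, 1 member with an unadjusted p under 0.05), and edgeR called 1 without Fc replicate 3.

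In FaDu at 6 h, ISG20 was called higher with each ligand given alone. It gave 4.91 and 3.63 CPM in untreated cells and 12.7 and 18.9 CPM with EGFlow (log2 fold change 1.87 ± 0.36, adjusted p = 0.00606). With EGFhigh it gave 9.89 and 13.2 CPM (1.42 ± 0.36, adjusted p = 0.0385). With EpEX it gave 11.5 and 14.3 CPM, against 3.97 and 4.12 CPM with Fc (1.71 ± 0.37, adjusted p = 0.0116). The treated libraries lay above the controls in all 3 comparisons, of which the first pair share the untreated libraries. With 2 libraries against 2 this is common. In the same order, the groups did not overlap for 12, 9 and 10 of 35 members. Among all genes the shares were 42.9%, 40.3% and 39.7%. Of 35 members, 2 were called with EGFlow (3.45% of all genes), 1 with EGFhigh (3.06%) and 1 with EpEX (3.5%). The other call with EGFlow was PARP14, a mono-ADP-ribosyltransferase, with 93.2 and 103 CPM against 60.4 and 55.2 CPM (0.75 ± 0.19, adjusted p = 0.0395). Without EGFlow replicate 4 or untreated replicate 4 the EGFlow comparison called 0, and without EGFlow replicate 3 or untreated replicate 3 it called 1. The EGFhigh call was lost without EGFhigh replicate 4 or either untreated library, and the EpEX call without EpEX replicate 4 or either Fc library. In a fit of all FaDu libraries none of these calls was made, and with only the groups compared the EGFhigh and EpEX calls were lost. ISG15, IFIT1, MX1 and OAS1 were not called in any of the 3 comparisons, with adjusted p-values between 0.454 and 1.

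Pooling the 3 arms with EGF at 6 h in FaDu, after the data had been seen, called 2 of 35 members (4.5% of all genes). ISG20 ran from 8.13 to 18.9 CPM (median 12.7, 5 libraries) with EGF and from 3.63 to 4.91 CPM (median 4.05, 4 libraries) without (log2 fold change 1.46 ± 0.25, adjusted p = 0.00154). PARP14 ran from 63.9 to 108 CPM with EGF and from 55.2 to 60.4 CPM without (0.52 ± 0.13, adjusted p = 0.0267). Neither gene overlapped between the groups, which held for 3 of 35 members and 8.61% of all genes. Leaving out single libraries gave between 1 and 4 calls, with 4 without replicate 3 of EGFhigh_EpEX and 1 without replicate 3 of EGFhigh, replicate 4 of EGFlow or any of the 4 control libraries. IFNGR2 was the 1 gene called, higher, of the ligands, receptors, kinases and sensors, and of the further induced genes GBP1, TRIM25 and GBP2 were called higher.

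**Figure D4:**
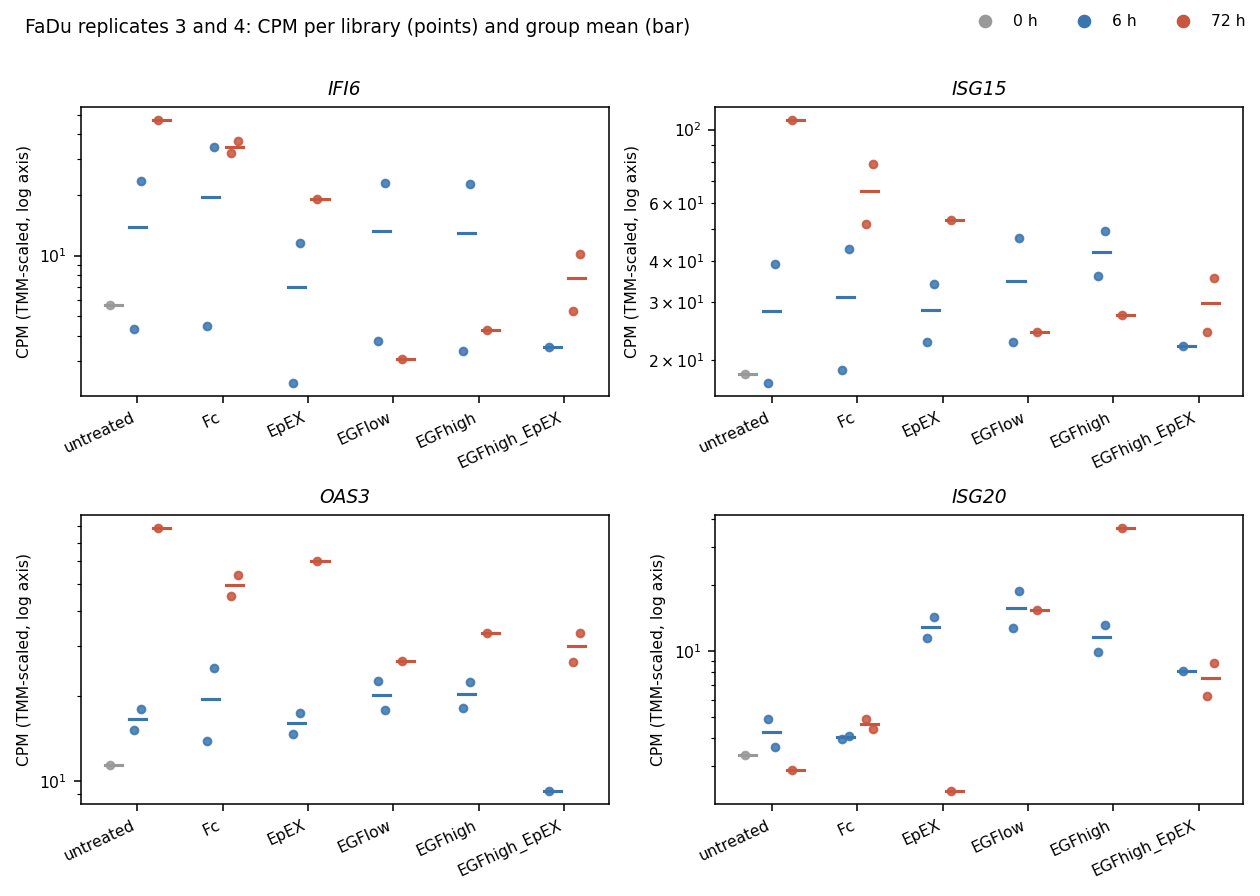
CPM of IFI6, ISG15, OAS3 and ISG20 in each FaDu library numbered 3 or 4 on log axes, by arm, with 0 h in grey, 6 h in blue and 72 h in red and a bar for the group mean. At 72 h IFI6, ISG15 and OAS3 lie lower in the 3 arms with EGF than in untreated, Fc and EpEX, and ISG20 lies higher.

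At 72 h, 13 of the 35 members tested were lower in FaDu cells that had received EGF. The comparison of the 3 arms with EGF (4 libraries) with untreated and Fc (3 libraries) was chosen after the data had been seen. Each arm counted equally within its side. Untreated, EGFlow and EGFhigh held 1 library each, so the untreated library weighed as much as the 2 Fc libraries together. Of 35 members, 14 were called, of which 13 were lower with EGF and ISG20 was higher. Among all 16022 genes 6.89% were called and 3.08% were called lower. The groups did not overlap for 19 of 35 members, against 18.8% of all genes, and 22 of 35 had an unadjusted p under 0.05, against 20.6%. The median log2 fold change was -1.59 over the 35 members and -0.07 over all genes. The lower members were IFI44L (-5.83), IFI44 (-4.40), IFIT1 (-3.36), IFI6 (-3.09), UBE2L6 (-2.40), IFI35 (-2.20), MX1 (-2.16), HERC6 (-2.10) and BST2 (-1.99), followed by ISG15 (-1.59), STAT2 (-1.34), OAS3 (-1.03) and DTX3L (-0.80). The EGFlow library held no count of IFI44L or IFI44 and 0.161 CPM of IFIT1. The sizes given for these 3 genes depend on that library and are uncertain.

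IFI6 gave 46.9 CPM in the untreated library and 32.4 and 37.0 CPM with Fc. It gave 3.05 CPM with EGFlow, 4.25 CPM with EGFhigh and 5.29 and 10.2 CPM with EGFhigh_EpEX (adjusted p = 0.0251). IFI44L gave 12.2, 1.79 and 13.2 CPM in the same controls, and 0, 0.416, 0.601 and 0.876 CPM in the libraries with EGF (adjusted p = 0.00889). IFI44 gave 4.96, 6.44 and 4.96 CPM against 0, 0.999, 1.08 and 1.07 CPM (adjusted p = 0.00935). No library with EGF reached a control library in these 3 genes, and in IFI44L the Fc library numbered 3 was the lowest control. IFIT1 gave 12.4, 5.84 and 11.7 CPM against 0.161, 1.67, 3.48 and 3.31 CPM (adjusted p = 0.0195). UBE2L6, the enzyme that passes ISG15 to its ligase, gave 22.7, 17.8 and 13.4 CPM against 1.93, 3.997, 3.12 and 7.88 CPM (adjusted p = 0.00347). ISG15 itself gave 107, 51.6 and 78.4 CPM against 24.4, 27.5, 24.3 and 35.5 CPM (adjusted p = 0.00591). OAS3 gave 78.7, 45.3 and 53.8 CPM against 26.7, 33.6, 26.4 and 33.6 CPM (adjusted p = 0.00554), and OAS1, low in this line, was not called (adjusted p = 0.123).

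ISG20 moved the other way. It gave 2.86, 4.89 and 4.40 CPM in the controls and 15.4 CPM with EGFlow, 36.4 CPM with EGFhigh and 6.25 and 8.86 CPM with EGFhigh_EpEX (log2 fold change 2.17 ± 0.31, adjusted p = 0.000262). The 2 libraries that also received EpEX were the lowest of the 4. The single EpEX library at 72 h, which entered no group here, gave 2.30 CPM for ISG20, 19.0 CPM for IFI6 and 53.1 CPM for ISG15. For ISG20 and ISG15 it lay on the side of the controls, and for IFI6 between the groups. Summed over the 38 members, the controls ran from 529 to 779 CPM, the EpEX library gave 539 CPM and the libraries with EGF ran from 310 to 401 CPM. Within number 3, IFI6 gave 32.4 CPM in the control and 3.05 and 5.29 CPM with EGF. Within number 4 it gave 46.9 and 37.0 CPM against 4.25 and 10.2 CPM, so the difference stood within both numbers.

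The count of 14 was 8 without the EGFhigh library, 7 without the EGFlow library, 6 without Fc replicate 4 and 4 without the untreated library. DESeq2 called 15. When the FaDu libraries numbered 1 and 2 entered the fit, no member was called, and the log2 fold changes of IFI6 (0.70) and MX1 (0.39) turned to higher with EGF. In those libraries at 72 h, IFI6 ran from 16.6 to 259 CPM in the 5 with EGF and from 18.9 to 34.4 CPM in the 3 untreated and Fc libraries, and ISG15 from 7.20 to 160 CPM and from 8.46 to 75.5 CPM, so the groups overlapped. Among the called genes of the list of further induced genes, GBP2 (-4.85), GBP1 (-1.51), IFITM2 (-1.49), HELZ2 (-1.14) and IFITM3 (-1.03) were lower with EGF and SLFN5 (2.25) was higher, on the log2 scale. Among the called ligands, receptors, kinases and sensors, IFNGR2 (1.42), a subunit of the interferon gamma receptor, and the kinase JAK1 (0.53) were higher.

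The comparison the design gives directly at 72 h, EGFhigh_EpEX with Fc and 2 libraries each, uses 4 of the same libraries. No member was called by edgeR with the filter or by DESeq2 (0.818% of all genes, 0.193% called lower). IFI6 and ISG15 were called with the replicate block, the same 2 and IFI44 with only the groups compared, and the same 2 and IFI44L without the filter. Of 35 members, 11 had an unadjusted p under 0.05, all lower with EGFhigh_EpEX, against 6.78% of all genes in either direction. The groups did not overlap for 23 of 35 members, against 40.9% of all genes. The median log2 fold change of the members was -1.34, beside -0.01 over all genes. ISG15 gave -1.11 ± 0.41 (adjusted p = 0.442), IFIT1 -1.36 ± 0.88 (adjusted p = 0.936), MX1 -1.36 ± 0.74 (adjusted p = 0.843) and OAS1 -2.28 ± 1.2 (adjusted p = 0.822).

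With time, FaDu cells under Fc had 1 member called of 35 (2.88% of all genes), OAS3, with 45.3 and 53.8 CPM at 72 h and 13.8 and 25.1 CPM at 6 h (log2 fold change 1.37 ± 0.27, adjusted p = 0.00747). The call was lost without Fc replicate 3 at 6 h or Fc replicate 4 at 72 h. At an unadjusted p under 0.05, 10 of 35 members were higher at 72 h and none was lower, beside 15% of all genes in either direction. The count of called members was 3 without the filter on low counts, 2 with only the groups compared, 2 with the replicate block and 0 with all FaDu libraries. At 6 h the 2 numbers differed within each arm. IFI6 gave 4.32 and 23.4 CPM in untreated cells numbered 3 and 4, 4.48 and 34.5 CPM with Fc, 3.77 and 22.8 CPM with EGFlow and 3.36 and 22.6 CPM with EGFhigh. With EpEX it gave 2.33 and 11.6 CPM, so that every library numbered 3 lay below every library numbered 4.

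**Figure D5:**
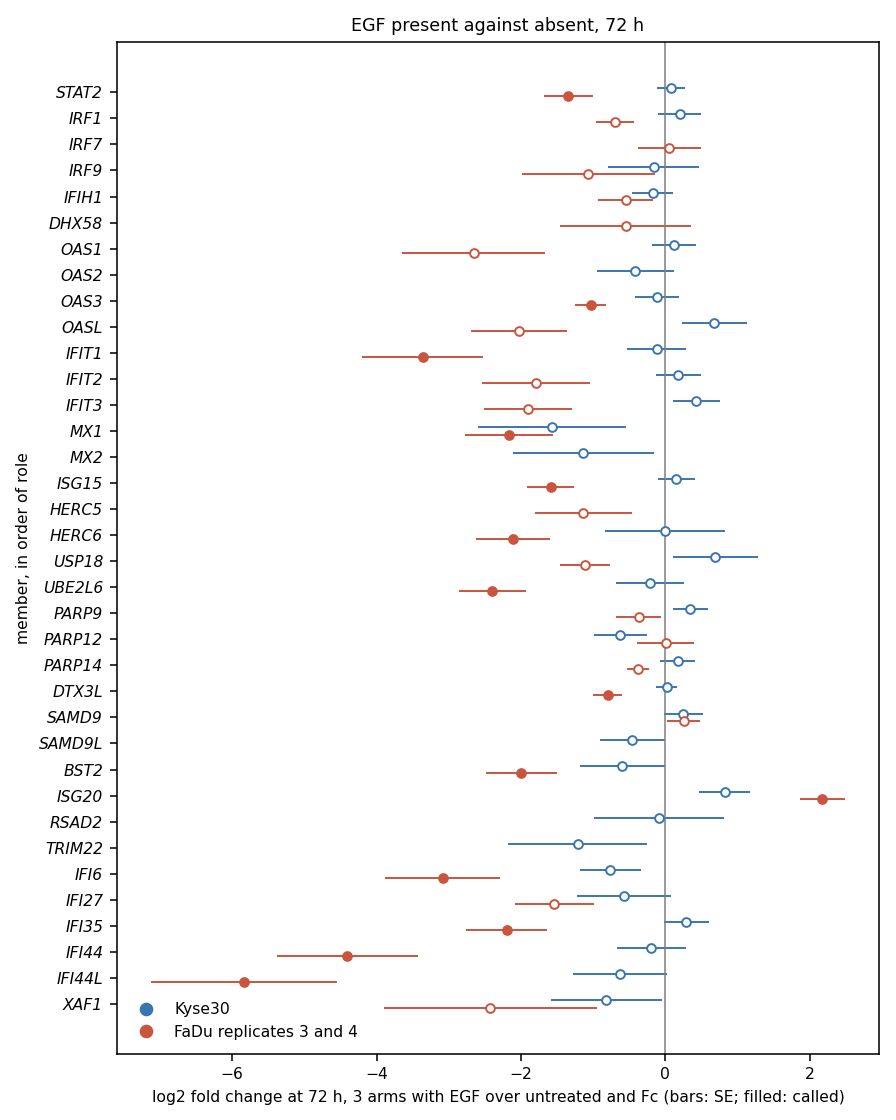
Log2 fold change at 72 h between the 3 arms with EGF and untreated plus Fc, with 1 row a member in order of role, Kyse30 in blue and FaDu libraries numbered 3 and 4 in red, bars for the SE and filled points for called members. Members at under 1 CPM in both groups of a line are left out for that line. The 13 lower calls in FaDu lie left of the zero line, and no Kyse30 point is filled.

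Whether the lines differed in their response to EGF was tested as an interaction. For EGFhigh at 6 h no member of 37 was called by edgeR or DESeq2 (0.0611% of all genes, 1 member with an unadjusted p under 0.05). For the pooled arms at 72 h, added after the data had been seen, edgeR called none (0.565% of all genes), and 16 had an unadjusted p under 0.05, of which 15 had a higher fold change in Kyse30, beside 9.05% of all genes at that p in either direction. The lowest adjusted p was that of IFI35 (log2 difference 2.49 ± 0.64, adjusted p = 0.0509), followed by ISG15 (1.75 ± 0.47, adjusted p = 0.0661) and STAT2 (1.43 ± 0.39, adjusted p = 0.0694). DESeq2 called 7 members there, which were IFI35, IFI44, IFIT1, IFIT3, ISG15, OAS1 and STAT2.

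The members also varied together over libraries, which is given as a description. On the log2 scale each member was correlated with the mean of the others. The median Pearson r was 0.781 over the 33 members tested in Kyse30 (43 libraries) and 0.604 over the 35 in FaDu (20 libraries), with r above 0.5 for 27 and 21 members. The libraries share arms, times and replicate numbers, and within groups the medians were 0.617 and 0.542. The values within groups still hold differences between replicate numbers, and no such value was made for other genes. In FaDu, ISG20 (-0.465), SAMD9L (-0.170) and IRF7 (-0.092) had negative r, and in Kyse30 1 member did.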

How the data were processed

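RNA of 84 libraries (43 of Kyse30, 41 of FaDu) was sequenced from the 3′ ends of transcripts (QuantSeq). The deposited values are raw read counts per gene, which the authors made with STAR and HTSeq on GRCh38 (hg38); versions and the strand setting are not given in the sources used here. Rows that name no gene held 33.7% to 60.3% of all counts in a library, of which reads aligned to several places made up 24.6% to 52.2% of all counts, and were left out of library sizes and tests. The 38 members were matched by Ensembl identifier. The members and lists were chosen with earlier results of these data known.

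Counts were tested with edgeR 4.0.16 in R 4.3.3 by the quasi-likelihood F test after TMM scaling and filterByExpr (minimum count 10, total 15), over all 43 Kyse30 libraries (15350 genes), 20 FaDu libraries (16022 genes) or both (19634 genes), with Benjamini-Hochberg adjustment over all genes tested. A gene was called when its adjusted p did not exceed 0.05 and its log2 fold change exceeded 0.5 in either direction. Printed CPM were scaled over all 84 libraries. Correlations of the members used log2(CPM + 1). The correlation of deviations over all genes used log2 CPM with a prior count of 2. Groups followed the labels. In each comparison every called member is named up to 10, otherwise the 10 with the largest change. Values in each library are given for up to 5 called members, and ISG15, IFIT1, MX1 and OAS1 are named in the main comparisons also where not called. Alternatives were DESeq2 1.42.0, no count filter, a fit of only the groups compared, the replicate number as a block, all FaDu libraries, and leaving out each library. Counting intervals and floors cover counting error only, since reads carried no molecular identifiers in the sources used here. Figures were drawn with matplotlib 3.10.9. On simulated counts for untreated Kyse30 at 72 h against 6 h (15350 genes), the test recovered 19% of genes changed by 1 and 55% of those changed by 2 on the log2 scale. Some genes of the marker and pathway lists are not reported here.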

Additional observations from a re-analysis of the deposited data

Results flagged for a closer look

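In 6 of 111 groups of 4 Kyse30 libraries and members tested, 1 library stood apart from the others of its group, where chance gives about 1 in 20. Replicate 2 of EGFhigh_EpEX at 6 h gave 8.18 CPM for IFI44L (the others 0.415 to 0.749), 37.4 CPM for OAS1 (11.6 to 12.9) and 2.65 CPM for XAF1 (0 in the others). Replicate 2 of EGFlow at 6 h gave 12.4 CPM for OAS2 (0.514 to 1.53), and replicate 1 of the same group gave 11.6 CPM for PARP12 (5.65 to 5.94). Replicate 4 of EGFlow at 72 h gave 13.0 CPM for IFIH1, below the others at 14.2 to 14.4.

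The FaDu libraries numbered 1 and 2, which entered no main comparison, held members above the highest untreated or Fc library of those numbers. IFI6 reached 259 CPM with EGFhigh at 72 h in replicate 2 (controls up to 34.5) and XAF1, a pro-apoptotic protein, 234 CPM with EGFlow at 72 h in replicate 1 (up to 13.1). TRIM22 reached 32.2 CPM with EpEX at 72 h in replicate 1 (up to 2.02), ISG20 28.97 CPM with EGFhigh_EpEX at 6 h in replicate 2 (up to 7.84) and IFI44L 24.8 CPM with EpEX at 72 h in replicate 2 (up to 4.53).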

How the results depend on the processing

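Of 140 settings of the counts of called members, leaving out single libraries aside, 105 stayed within 1.5 times the count reported and 35 did not. Without the count filter, Kyse30 gave 4 (EGFlow 6 h), 5 (EGFhigh 6 h), 1 (EpEX 6 h), 3 (EGFhigh_EpEX 6 h), 5 (EGFhigh 72 h), 4 (EGFhigh against EGFlow), 2 (EGFhigh_EpEX against EGFhigh) and 15 (untreated, 72 h against 6 h), and FaDu 2 (EpEX 6 h), 3 (EGFhigh_EpEX 72 h) and 3 (Fc with time). DESeq2 gave 3 (Kyse30 EGFhigh 6 h), 1 (EpEX 6 h), 1 (EGFhigh_EpEX 6 h), 10 (Fc with time), 2 (FaDu EGFhigh 6 h) and 7 (difference between lines at 72 h). With only the groups compared, Kyse30 gave 4 (EGFhigh 6 h), 1 (EGFhigh 72 h) and 15 (untreated with time), and FaDu 0 (EGFhigh 6 h), 0 (EpEX 6 h), 3 (EGFhigh_EpEX 72 h) and 2 (Fc with time). With all FaDu libraries, the counts for EGFlow, EGFhigh and EpEX at 6 h, Fc with time, and pooled EGF at 6 h and 72 h were each 0, and the log2 fold changes of IFI6 (0.70) and MX1 (0.39) at 72 h reversed. The cause was not tested.

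Leaving out 1 library gave 0 to 1 calls for EGFhigh 6 h, EGFhigh_EpEX 6 h, EGFhigh against EGFlow and pooled EGF at 72 h in Kyse30, and for EGFlow, EGFhigh and EpEX at 6 h and Fc with time in FaDu. The ranges were 1 to 8 (untreated with time), 1 to 4 (Fc), 5 to 15 (EpEX), 7 to 21 (EGFlow), 3 to 9 (EGFhigh), 6 to 17 (EGFhigh_EpEX), 3 to 5 (pooled EGF at 6 h, Kyse30), 1 to 4 (6 h, FaDu), 4 to 13 (72 h, FaDu) and 5 to 8 (between lines). Where 1 library was left in a group, it was assumed to vary like the other groups. Of 615 such settings for single genes, 365 kept the call, 250 lost it and 0 reversed; of 261 other settings, 233 kept it, 26 lost it and 2 reversed.

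The labels do not say that a number marks a shared batch, and over all genes the deviations of same-numbered libraries had a mean correlation of 0.0633 in Kyse30 and 0.0713 in FaDu, down to -0.131 and -0.0362, so the numbers were not taken as pairs. Over the members alone the mean was 0.195 in Kyse30, against -0.0664 for other numbers, and 0.375 in FaDu. The lowest values were -0.490 and 0.0870. Each FaDu group used here held 2 libraries, so the value for other numbers is the same with the sign reversed and adds nothing. With the replicate block the counts were 2 (Kyse30 EGFhigh 6 h), 1 (EpEX 6 h), 15 (EGFhigh with time), 2 (FaDu EGFhigh_EpEX 72 h) and 2 (FaDu Fc with time), and the other counts stayed within 1.5 times. Leaving out EGFhigh libraries for the difference between lines at 6 h, and any library for that at 72 h, was not run. Depth limits the lowest members, since 3 counts in a library correspond to 0.255 to 1.54 CPM in Kyse30.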
